A study of Homo sapiens with 14 samples.

Results

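MAGEA3, MAGEA4, MAGEA6, MAGEB2, SPANXB1, CTAG2, PRAME, LEMD1 and ERVH48-1 are the 9 genes described here, out of 36601 genes in the single-cell tables and 60624 genes in the bulk tables. They were picked by symbol as genes commonly silenced by DNA methylation, to be read by line, day and location, with earlier values of these libraries known, so their levels in those comparisons are a description and carry no test. All 9 symbols were found in both kinds of table.

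The samples came from SW620, a colorectal cancer line established from a lymph node metastasis, and from SW480, which was established from the primary tumour of the same patient. The single-cell libraries were made from SW620 carrying an empty FLAG vector (SW620-FLAG, labelled SW620) and from SW620 made to overexpress the TET2 catalytic domain (SW620-TET2CD) on days 6, 9, 12 and 15 of a long-term colony culture without passage, 1 library for each line and day. The bulk libraries were made from SW480 on day 6, SW620 on day 6, and the cells inside and outside colonies of SW620 and of SW620-TET2CD on day 15, again 1 library each. The bulk labels say SW620 and name no vector on either day, and the day 15 libraries with that label are called SW620-FLAG here for short. Cells outside colonies were those that passed a 70 µm strainer after mild dissociation. No condition was repeated, so every spread given here is a counting interval or a spread over days, or in bulk over the libraries of the other line or location, and the tests treat these as the replicates. Overexpression was not uniform within SW620-TET2CD, as shown further on, and no label says whether the line is 1 clone.

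Cancer-testis antigens are proteins whose genes are normally active in germ cells, are silenced in most adult tissues with dense CpG methylation at many of their promoters, and are switched on again in a range of tumours. MAGE proteins bind E3 ubiquitin ligases, PRAME serves as a substrate receptor of a CUL2 ligase and represses retinoic acid signalling, and ERVH48-1 encodes suppressyn, an envelope remnant of an endogenous retrovirus that binds the transporter SLC1A5 and blocks cell fusion by syncytin-1 in the placenta. TET2 oxidises 5-methylcytosine, the first step of active demethylation.

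Of the 9 genes, 6 lie on the X chromosome. On GRCh38, MAGEB2 (ENSG00000099399) covers chrX:30215563-30220089 on the plus strand, SPANXB1 (ENSG00000227234) chrX:141002594-141003706 on the plus strand and MAGEA4 (ENSG00000147381) chrX:151912495-151925171 on the plus strand. MAGEA3 (ENSG00000221867) covers chrX:152698767-152702347 on the plus strand, MAGEA6 (ENSG00000197172) chrX:152766136-152769716 on the minus strand and CTAG2 (ENSG00000126890) chrX:154651972-154653579 on the minus strand. The autosomal ones are PRAME (ENSG00000185686) at chr22:22547701-22559361, LEMD1 (ENSG00000186007) at chr1:205381378-205455954 and ERVH48-1 (ENSG00000233056) at chr21:42916803-42925630, all on the minus strand.

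The promoters of the genes that the results turn on follow, with those of the near-silent pair MAGEA3 and MAGEA6 for contrast. The sequences are the 250 bases before the RefSeq start on GRCh38.p14, written 5′ to 3′ on the gene's strand with every CpG, the dinucleotide that carries the methyl mark, in capitals.
MAGEB2, chrX:30215313-30215562, plus strand: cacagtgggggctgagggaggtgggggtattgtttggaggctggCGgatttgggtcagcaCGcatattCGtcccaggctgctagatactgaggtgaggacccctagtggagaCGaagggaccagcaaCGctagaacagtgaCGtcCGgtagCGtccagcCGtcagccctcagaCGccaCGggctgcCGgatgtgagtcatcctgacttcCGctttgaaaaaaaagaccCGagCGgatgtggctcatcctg
SPANXB1, chrX:141002344-141002593, plus strand: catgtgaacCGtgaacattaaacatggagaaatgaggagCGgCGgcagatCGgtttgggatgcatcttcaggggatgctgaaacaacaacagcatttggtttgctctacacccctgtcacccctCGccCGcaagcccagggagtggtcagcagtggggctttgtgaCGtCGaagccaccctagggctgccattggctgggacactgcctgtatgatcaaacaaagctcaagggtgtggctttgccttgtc
MAGEA3, chrX:152698544-152698793, plus strand: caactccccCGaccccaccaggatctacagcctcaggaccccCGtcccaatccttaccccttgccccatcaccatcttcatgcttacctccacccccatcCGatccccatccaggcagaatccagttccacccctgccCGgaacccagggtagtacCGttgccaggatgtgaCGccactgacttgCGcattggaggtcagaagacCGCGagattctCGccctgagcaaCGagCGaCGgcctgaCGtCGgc
LEMD1, chr1:205422057-205422306, minus strand: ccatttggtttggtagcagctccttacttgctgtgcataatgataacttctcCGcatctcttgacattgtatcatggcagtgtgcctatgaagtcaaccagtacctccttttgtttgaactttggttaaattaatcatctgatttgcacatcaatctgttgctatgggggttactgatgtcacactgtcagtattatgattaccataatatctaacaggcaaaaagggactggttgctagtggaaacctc

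The MAGEB2 and MAGEA3 stretches held 15 CpGs each, and 42.9% of the 35116 promoters in the same RefSeq table held at least as many. The MAGEA6 stretch (chrX:152769690-152769939) was identical to that of MAGEA3 at all 250 positions. SPANXB1 held 8 CpGs, which 56.3% of promoters reached, and LEMD1 held 1 CpG, which 93.9% reached. The LEMD1 stretch precedes a start that lies inside the gene span given above, and the table has no promoter at the outer end of that span, so its count describes the internal start alone. The motif CCGGAA, searched on both strands, was found in the MAGEA3, MAGEA6 and first PRAME promoters and in 14.5% of all promoters. GGGCGG on either strand was in 42.6% of all promoters and CACGTG in 6.34%, and neither was in the promoters of MAGEB2, SPANXB1, MAGEA3, MAGEA6 or LEMD1. The table has 3 promoters for PRAME and 5 for MAGEA4. It has no entry under the symbols CTAG2 and ERVH48-1, so no promoter is given for them.

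The cell filter (200 to 4500 genes, 1000 to 20000 UMIs, that is, distinct captured RNA molecules, and at most 10% mitochondrial UMIs) kept 48282 of 67056 barcodes. Each library then held 48186195 to 74185723 UMIs, so 3 UMIs, the limit that a count of 0 allows, came to 0.0404 to 0.0623 CPM, the UMI count scaled to the same total in every library. The bulk libraries held 16470176 to 25840563 expected counts. Between any pair of single-cell libraries, 1 to 23 kept barcodes were shared. TET2 ranged over 2.11 to 3.90 CPM in SW620-FLAG, and reached 107, 59.5, 40.2 and 41.6 CPM on days 6, 9, 12 and 15 of SW620-TET2CD. Of 12 colorectal epithelial markers 7 exceeded 5 CPM, among them KRT18 (at most 7254 CPM) and EPCAM (at most 639 CPM), while the differentiation markers KRT20, CEACAM5, CDX1, MYO1A and LGALS4 reached only 0.965, 0.322, 0.207, 0.257 and 1.75 CPM. Of 12 germ cell markers, SOX17, KIT and PRM1 were at 0 in every library and DDX4 and DAZL reached only 0.0208 and 0.0135 CPM, while PRDM1 reached 14.5 CPM, NANOS3 1.76 CPM and TFAP2C 1.14 CPM. Of 15 trophoblast markers, CGB3, CGB5, CSH1, PSG1 and PSG3 were at 0, and the syncytin genes ERVW-1 and ERVFRD-1 stayed at or below 0.0757 and 0.0184 CPM, while SDC1 was at 23.1 to 35.5 CPM. Of 12 stromal and blood markers, PTPRC, CDH5 and COL1A2 reached at most 0.0197, 0.0623 and 0.0196 CPM, and the list summed to 28.4 to 68.3 CPM in SW620-FLAG and 34.4 to 56.2 CPM in SW620-TET2CD, most of it CD68, LYZ and LUM.

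The 9 genes spanned the range from silent to abundant. MAGEA4 and MAGEA6 had no UMI in any of the 8 single-cell libraries. MAGEA3, whose product joins TRIM28 in a ubiquitin ligase, had 2, 1, 0 and 0 UMIs in SW620-FLAG and 0, 1, 0 and 1 in SW620-TET2CD on days 6, 9, 12 and 15. CTAG2, the paralogue of NY-ESO-1, had none in SW620-FLAG and 1, 4, 0 and 1 in SW620-TET2CD, and the 4 UMIs of day 9 sat in 1 cell. PRAME had 1, 2, 4 and 2 UMIs in SW620-FLAG and 3, 3, 4 and 11 in SW620-TET2CD. None of these 5 genes passed the filter on low counts, so the fits below cover only MAGEB2, SPANXB1, ERVH48-1 and LEMD1. Between the lines SPANXB1, ERVH48-1 and MAGEB2 passed it only through their SW620-TET2CD libraries. All 4 of these reached the limit of 0.186 CPM for each gene. In SW620-FLAG none did for SPANXB1 and ERVH48-1, and 3 did for MAGEB2, where 4 were needed.

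MAGEB2, a type I MAGE antigen, was higher in SW620-TET2CD than in SW620-FLAG on each day and fell with culture time in both lines. On days 6, 9, 12 and 15 the SW620-FLAG libraries held 2.90, 1.34, 0.433 and 0.0946 CPM. The SW620-TET2CD libraries held 12.6, 7.68, 5.29 and 2.37 CPM. For 20.1% of all genes tested SW620-TET2CD was likewise above SW620-FLAG on all 4 days, and for 26% days 12 and 15 lay below days 6 and 9 in both lines, as MAGEB2 did. The lines overlapped over the days, since the day 15 value of SW620-TET2CD lay under the day 6 value of SW620-FLAG. The ratio of SW620-TET2CD to SW620-FLAG was 4.33 (95% exact interval 3.73 to 5.05) on day 6 and 5.72 (4.48 to 7.41) on day 9. It was 12.2 (7.89 to 19.8) on day 12 and 25.1 (10.5 to 78.6) on day 15. By day 15 the SW620-FLAG level was 0.0326 (0.0105 to 0.0773) of its day 6 level, and the SW620-TET2CD level was 0.189 (0.155 to 0.228) of its own. These intervals, like all others here, cover counting error only.

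SPANXB1, a sperm nuclear envelope protein of the SPANX family, was nearly absent from SW620-FLAG and present in SW620-TET2CD. It had 2, 3, 0 and 1 UMIs in SW620-FLAG, on each day from no more than 1 cell. The SW620-TET2CD libraries held 4.64, 1.75, 1.99 and 2.31 CPM, from 344, 127, 96 and 118 UMIs, and every value lay above every SW620-FLAG value. The same held for 2.14% of the genes tested, and the count filter favoured it for SPANXB1, which passed only through SW620-TET2CD. SPANXB1 was concentrated in few cells: on day 12 its 96 UMIs came from 31 cells, and 1 cell held 20 of them.

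ERVH48-1 showed the same separation of the lines, likewise favoured by the filter, and its level in SW620-TET2CD was higher on each later day. It had 0, 2, 1 and 2 UMIs in SW620-FLAG. The SW620-TET2CD libraries held 1.42, 2.09, 2.72 and 3.14 CPM, from 105, 152, 131 and 160 UMIs. The counting interval of day 12 (2.27 to 3.23 CPM) overlaps those of day 9 (1.78 to 2.46) and day 15 (2.67 to 3.66). The share of all genes with such a course was not computed. On day 6 its SW620-TET2CD level was at least 34.8-fold higher than the SW620-FLAG limit of 3 UMIs, and on day 15 it was 82.9 (22.6 to 690) times the SW620-FLAG level. Its level on day 15 was 2.22 (1.72 to 2.86) times that on day 6 in SW620-TET2CD, while TET2 itself was at 0.391 (0.372 to 0.410) of its day 6 level.

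LEMD1, a LEM domain protein whose locus also hosts the microRNA gene MIR135B, was the abundant member and moved more with the day than with the line. On days 6, 9, 12 and 15 the SW620-FLAG libraries held 5.57, 8.62, 137 and 271 CPM. The SW620-TET2CD libraries held 5.11, 7.51, 83.9 and 174 CPM. Days 12 and 15 lay above days 6 and 9 in both lines without overlap, as was the case for 34.7% of the 16526 genes tested. The level on day 15 was 48.7 (44.2 to 53.9) times that on day 6 in SW620-FLAG and 34.1 (30.8 to 37.9) times in SW620-TET2CD. The lines differed on the later days, with SW620-TET2CD at 0.611 (0.587 to 0.635) of SW620-FLAG on day 12 and 0.643 (0.626 to 0.660) on day 15. On day 6 the ratio was 0.917 (0.796 to 1.06), an interval that includes equality, and on day 9 it was 0.871 (0.769 to 0.988). LEMD1 was thus lower in SW620-TET2CD on all 4 days, as were 5.78% of the genes tested, although the lines overlapped over the days.

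**Figure D1:**
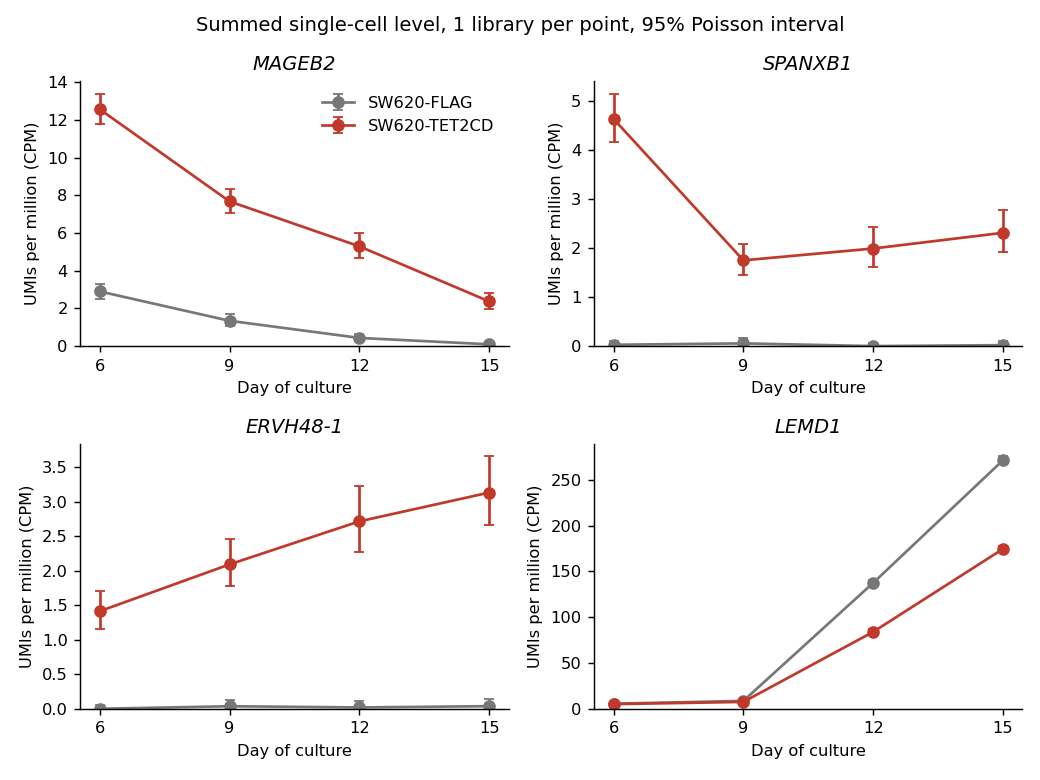
Level of MAGEB2, SPANXB1, ERVH48-1 and LEMD1 (y axis, CPM, summed over the kept cells of a library) against day of culture (x axis, days) in SW620-FLAG (grey) and SW620-TET2CD (red), each point 1 library with its 95% Poisson interval. MAGEB2 is higher in SW620-TET2CD on each day and falls in both lines, SPANXB1 and ERVH48-1 stay near 0 in SW620-FLAG, and LEMD1 rises from 5.57 to 271 CPM in SW620-FLAG.

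In the fit across days (edgeR's quasi-likelihood test on summed UMIs, with day as a term), the log2 fold change of SW620-TET2CD over SW620-FLAG was 2.71 ± 0.25 (SE) for MAGEB2, 6.57 ± 0.37 for SPANXB1, 6.47 ± 0.34 for ERVH48-1 and -0.54 ± 0.13 for LEMD1. Of the 16526 genes tested, 4.21% passed an adjusted p of 0.05 (2.37% higher and 1.85% lower in SW620-TET2CD), and every SW620-TET2CD library lay above every SW620-FLAG library for 2.14%. Nothing is read from the places of the 4 genes against that background, since the line was part of how they were chosen. With late days (12 and 15) against early days (6 and 9) as the contrast and line as a term, the log2 fold change was -2.12 ± 0.46 for MAGEB2, 0.60 ± 0.33 for ERVH48-1 and -0.82 ± 0.42 for SPANXB1. The SPANXB1 value rested on the SW620-TET2CD day 6 library and was -0.12 without it. MAGEB2 had enough counts only through the early days, in which 4 libraries reached the limit against 3 of the late ones. In that contrast 58% of the genes tested passed. Of the stromal and blood markers 7 were tested over time: CD68 (3.10 ± 0.53), DCN (2.45 ± 0.65), LYZ (1.07 ± 0.23), VWF (1.06 ± 0.40) and COL1A1 (0.76 ± 0.22) rose and LUM (-1.39 ± 0.25) fell. All 4 germ cell markers tested were called, with TFAP2C (1.38 ± 0.41), NANOS3 (0.75 ± 0.23) and PRDM1 (0.46 ± 0.18) higher and POU5F1 (-1.30 ± 0.32) lower on the late days, and the trophoblast marker SDC1 fell (-0.53 ± 0.11). DCN, VWF and TFAP2C had enough counts only through the late days. Of 10 epithelial markers tested, CDH1 (1.39 ± 0.19) and LGALS4 (1.21 ± 0.26) rose and VIL1 (-0.31 ± 0.12) fell. Markers of other cell types moved with the line as well: of 12 stromal and blood markers 7 were tested, PECAM1 (log2 fold change 1.88 ± 0.27, a gene with enough counts only through SW620-TET2CD) and LYZ (0.83 ± 0.15) rose and CD68 (-1.08 ± 0.20) fell, and their part in the results was not tested.

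A gene can be higher because more cells carry it or because each carries more. Where most cells hold no UMI of a gene, the share with a UMI largely follows its mean level. The shares then cannot tell these readings apart, with or without thinning, and are given as a description. The share of kept cells with a MAGEB2 UMI was 3.64, 0.906, 0.509 and 0.0723% in SW620-FLAG on days 6, 9, 12 and 15, and 8.81, 5.97, 4.44 and 1.65% in SW620-TET2CD. With every cell thinned to 2000 UMIs, so that depth did not differ, the shares were 0.796, 0.294, 0.102 and 0.0147% against 2.70, 1.57, 1.19 and 0.411%. Cells with a UMI held a mean of 1.06, 1.07, 1.10 and 1.00 MAGEB2 UMIs in SW620-FLAG and 1.30, 1.45, 1.47 and 1.25 in SW620-TET2CD. The share was thus higher with and without thinning, which does not show that more cells carried the gene. The means were higher as well, but they were taken without thinning. Those of SW620-FLAG on days 12 and 15 rest on 20 and 5 cells.

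SPANXB1 was found in 1.75, 0.946, 0.796 and 0.730% of SW620-TET2CD cells, with a mean of 2.41, 2.08, 3.10 and 2.74 UMIs in each. ERVH48-1 was found in 1.10, 2.00, 2.52 and 2.14% of them, with 1.17 to 1.34 UMIs in each. LEMD1 was found in 6.11, 5.38, 70.5 and 77.5% of SW620-FLAG cells and in 4.15, 7.07, 49.6 and 68.4% of SW620-TET2CD cells. On day 15 it was thus found in most cells of both lines. Thinned to 2000 UMIs, the LEMD1 share went from 1.14% on day 6 to 41.5% on day 15 in SW620-FLAG and from 1.44 to 30.0% in SW620-TET2CD. In SW620-FLAG the share of cells was at most 0.0180% for SPANXB1 and 0.0289% for ERVH48-1. Free RNA was not measured. Median depths were 6640 to 13479 UMIs per cell in SW620-FLAG and 8310.5 to 12379 in SW620-TET2CD.

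TET2 itself was unevenly spread within SW620-TET2CD, which allowed a comparison inside the line. The rule that chose the genes does not name this comparison, but its cells are those that make up the line's sums, so it is not independent of the comparison between lines. Cells with 3 or more TET2 UMIs numbered 1052, 595, 267 and 246 on days 6, 9, 12 and 15, that is 12.9, 9.23, 6.86 and 4.18% of kept cells. They held 78.9, 69.98, 66.6 and 55.2% of the line's TET2 UMIs. Cells without a TET2 UMI made up 72.1, 75.9, 80.4 and 82.8%, and some of these may carry the transgene below detection. In SW620-FLAG, 1 cell on day 12 reached 3 TET2 UMIs. The cells with 3 or more were also deeper, with a median of 10002, 12447, 14163 and 11132 UMIs against 8405, 10991, 12218 and 8042 in cells without, and CPM divides by that depth.

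MAGEB2, SPANXB1 and ERVH48-1 were higher in the cells with 3 or more TET2 UMIs in all 4 libraries, and LEMD1 was lower in all 4. The share of all genes that kept a direction in all 4 libraries was not computed, nor was the share with a like order of the 3 classes. MAGEB2 was at 45.2, 33.2, 33.4 and 13.0 CPM in cells with 3 or more TET2 UMIs on days 6, 9, 12 and 15. It was at 18.9, 16.5, 11.4 and 6.32 CPM in cells with 1 or 2, and at 4.29, 2.38, 1.57 and 0.952 CPM in cells with none. The 3 classes kept this order on every day without overlap of their counting intervals. The log2 fold change of 3 or more against none, with library as a term, was 3.69 ± 0.15 (edgeR adjusted p = 8.4e-09 over 14963 genes), and 8.87% of all genes tested passed in this direction. That adjustment does not cover the choice of MAGEB2, which was made with values of these same cells known, so the p is descriptive. The cells with 3 or more TET2 UMIs held 53.1, 44.7, 49.0 and 29.8% of the line's MAGEB2 UMIs.

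SPANXB1 was at 21.8, 10.0, 14.9 and 11.9 CPM in cells with 3 or more TET2 UMIs and at 1.08, 0.277, 0.470 and 0.537 CPM in cells with none. Its log2 fold change was 4.56 ± 0.19, given as a description: SPANXB1 and ERVH48-1 had enough counts for the fit only through the cells with 3 or more TET2 UMIs (all 4 libraries reached the limit of 0.406 CPM, against 3 and 2 of 4 in the cells with none), so the filter favoured a difference and no p is given. MAGEB2 and LEMD1 reached it in both classes of every library. The intermediate class, with 1 or 2 TET2 UMIs, was at 4.42, 3.41, 3.58 and 8.65 CPM, and on day 15 its ratio to the highest class could not be told from equality (1.38, interval 0.876 to 2.13). ERVH48-1 was at 6.31, 12.1, 15.5 and 15.2 CPM with 3 or more, 2.65, 3.78, 6.67 and 10.6 CPM with 1 or 2, and 0.116, 0.369, 0.836 and 1.00 CPM with none. Its log2 fold change was 4.47 ± 0.25, and on day 15 its ratio of 3 or more to 1 or 2 TET2 UMIs, 1.44 (0.962 to 2.12), also included equality. Within each class the ERVH48-1 level on day 15 was above that on day 6, although in the cells with 3 or more it was not higher on day 15 than on day 12. The TET2 level within a class can differ between days, and its part in this course was not tested.

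LEMD1 was at 2.93, 6.14, 49.1 and 118 CPM in cells with 3 or more TET2 UMIs and at 5.55, 7.54, 88.0 and 179 CPM in cells with none. Its log2 fold change was -0.77 ± 0.09 (edgeR adjusted p = 9.8e-05), beside 7.6% of all genes that passed in this direction. As for MAGEB2, the adjustment does not cover the choice of the gene, and the p is descriptive. The class with 1 or 2 TET2 UMIs, at 5.21, 8.29, 80.1 and 170 CPM, did not differ from the cells with none beyond counting error on any day, with ratios of 0.939 (0.697 to 1.25), 1.10 (0.865 to 1.38), 0.910 (0.827 to 1.00) and 0.947 (0.891 to 1.01). Without library as a term the LEMD1 difference lost its call (log2 fold change -0.81, edgeR adjusted p = 1.00). The SW620-TET2CD cells without a TET2 UMI were also below SW620-FLAG on days 12 and 15, at 0.640 (0.614 to 0.667) and 0.660 (0.642 to 0.679) of its LEMD1 level. On day 9 the ratio of 3 or more to none was 0.814 (0.586 to 1.11), an interval that includes equality.

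**Figure D2:**
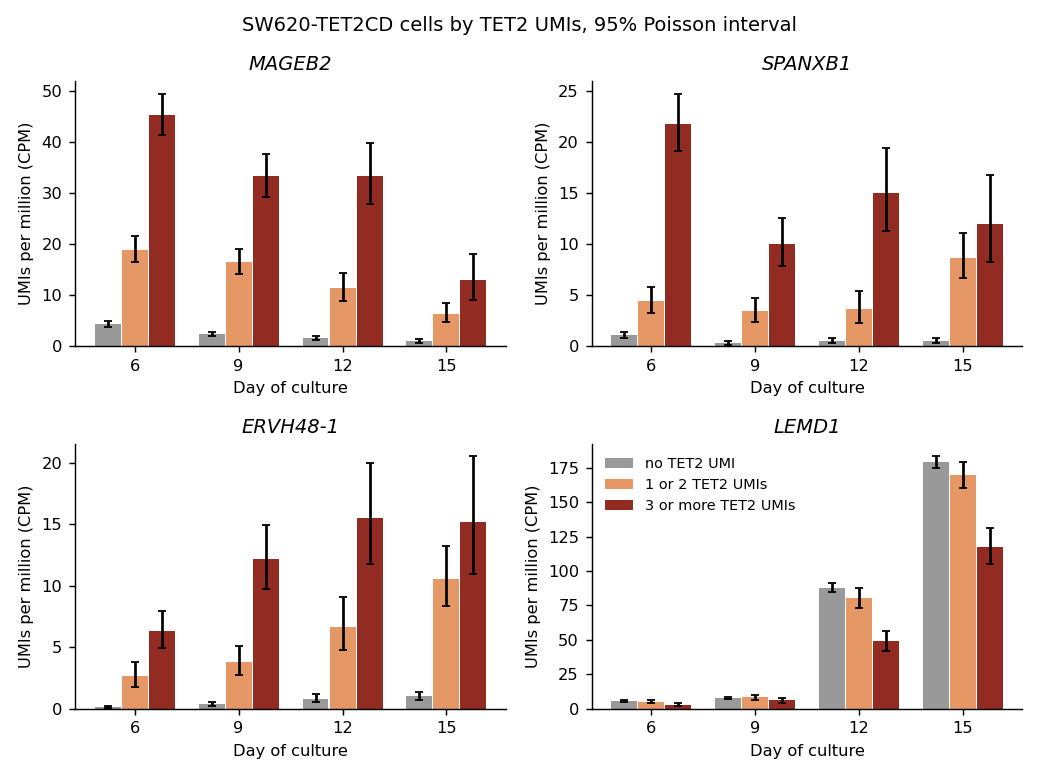
Level of MAGEB2, SPANXB1, ERVH48-1 and LEMD1 (y axis, CPM) in SW620-TET2CD by day of culture (x axis) for cells with no TET2 UMI (grey), 1 or 2 (orange) and 3 or more (dark red), with 95% Poisson intervals, 1 library per day. The dark red bars are the highest on all 4 days for the first 3 genes, from 45.2 to 13.0 CPM for MAGEB2, and the lowest for LEMD1.

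Cells of SW620-TET2CD without a TET2 UMI still differed from SW620-FLAG in MAGEB2, which was 1.48 (1.22 to 1.80), 1.77 (1.32 to 2.40), 3.61 (2.18 to 6.19) and 10.1 (3.96 to 32.7) times as high on days 6, 9, 12 and 15. With only these cells in the sums, a comparison added after seeing the data, the log2 fold change between lines was 1.12 ± 0.27 for MAGEB2 against 2.71 with all cells, and 4.38 ± 0.51 for SPANXB1 against 6.57. ERVH48-1 had no value in that fit. In these cells it was 10.0 (2.44 to 88.6), 42.4 (7.08 to 1727) and 26.4 (6.87 to 226) times the SW620-FLAG level on days 9, 12 and 15. Within SW620-FLAG, where TET2 UMIs come from the native gene, MAGEB2 was at 2.55 CPM (interval 0.827 to 5.94) in cells with 1 or 2 TET2 UMIs on day 6 and at 2.91 CPM (2.53 to 3.33) in cells with none. On day 9 the values were 3.77 (1.03 to 9.65) and 1.29 (1.01 to 1.64) CPM, and on day 12 they were 0.813 (0.0985 to 2.94) and 0.414 (0.253 to 0.640) CPM. These rest on 5, 4 and 2 UMIs in the cells with TET2 UMIs, there were none on day 15, and the intervals overlap on each day.

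Cell type markers moved between the same classes. Of 12 stromal and blood markers 5 were tested, and PECAM1 (log2 fold change 2.49 ± 0.29, with enough counts only through the cells with 3 or more) and LYZ (1.499 ± 0.145) rose while LUM (-0.78 ± 0.12) fell. Of 12 germ cell markers 3 were tested, and PRDM1 (0.67 ± 0.12) rose. The 1 trophoblast marker tested did not pass. Of 8 colorectal epithelial markers tested, LGALS4 (2.01 ± 0.27, with enough counts only through the cells with 3 or more) and CDX2 (0.59 ± 0.11) rose and EPCAM (-0.23 ± 0.06) and KRT19 (-0.31 ± 0.06) fell. All samples were cultures of cell lines, and the part of these marker changes in the results was not tested.

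Some cells carried more than 1 of the genes. After thinning to 2000 UMIs, 3.65% (interval 1.59 to 7.07) of the 219 MAGEB2-positive SW620-TET2CD cells of day 6 carried SPANXB1, against 0.468% (0.330 to 0.645) of the 7904 negative ones. On day 9 SPANXB1 was carried by 2% (0.243 to 7.04) of 100 positive and 0.303% (0.182 to 0.472) of 6277 negative cells, which overlap. ERVH48-1 was carried by 1.37% (0.283 to 3.95) and 0.266% (0.165 to 0.406) on day 6, which overlap, and by 4% (1.10 to 9.93) and 0.366% (0.232 to 0.549) on day 9, which do not. LEMD1 was carried by 2.74% (1.01 to 5.87) and 1.40% (1.16 to 1.69) on day 6 and by 0% and 1.56% on day 9, with overlap on both days. The part of TET2, which moved with these genes between the classes, was not tested.

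Other cancer-testis genes were read for context from lists of 87 further X-linked and 65 autosomal genes. Only 18 of the 152 had enough counts for the comparison of TET2 classes: 7 were called higher, 0 lower and 11 neither, beside 8.87% of all genes higher and 7.6% lower, with a median log2 fold change of 0.44 against -0.0078 over all genes. Of the 7, 5 passed the count filter only through the class where they are high and so had to differ, and the count and the median support nothing. These 5 were TDRD1 (log2 fold change 4.66 ± 0.32), a tudor protein of the piRNA pathway, MAGEB1 (4.50 ± 0.53), PAGE1 (4.47 ± 0.43), MAGEA11 (3.97 ± 0.58) and LY6K (3.39 ± 0.45). The other 2, with enough counts in both classes, were the sperm flagellum protein CABYR (1.52 ± 0.29) and the sperm surface protein SPA17 (0.99 ± 0.11). Both lost their call without library as a term. VCX, the X-linked listed gene with the highest level (at most 4.67 CPM), had a log2 fold change of 0.13 ± 0.22 and did not pass, and neither did MAGEF1 (-0.14 ± 0.07), the autosomal gene with the highest level (at most 71.6 CPM).

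MAGEB1 (chrX:30243715-30252040) lies in the same gene cluster as MAGEB2. It had no UMI in SW620-FLAG and was at 3.29, 1.74, 1.33 and 0.723 CPM in SW620-TET2CD cells with 3 or more TET2 UMIs on days 6, 9, 12 and 15, from 36, 13, 5 and 2 UMIs. MAGEB3 (chrX:30230657-30237495) and MAGEB4 (chrX:30242000-30244187), which lie between MAGEB2 and MAGEB1, were at 0 UMIs and at 1 UMI over all 8 libraries. MAGEB1 and MAGEB4 overlap by position, so a read in their shared bases cannot be assigned to either.

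**Figure D3:**
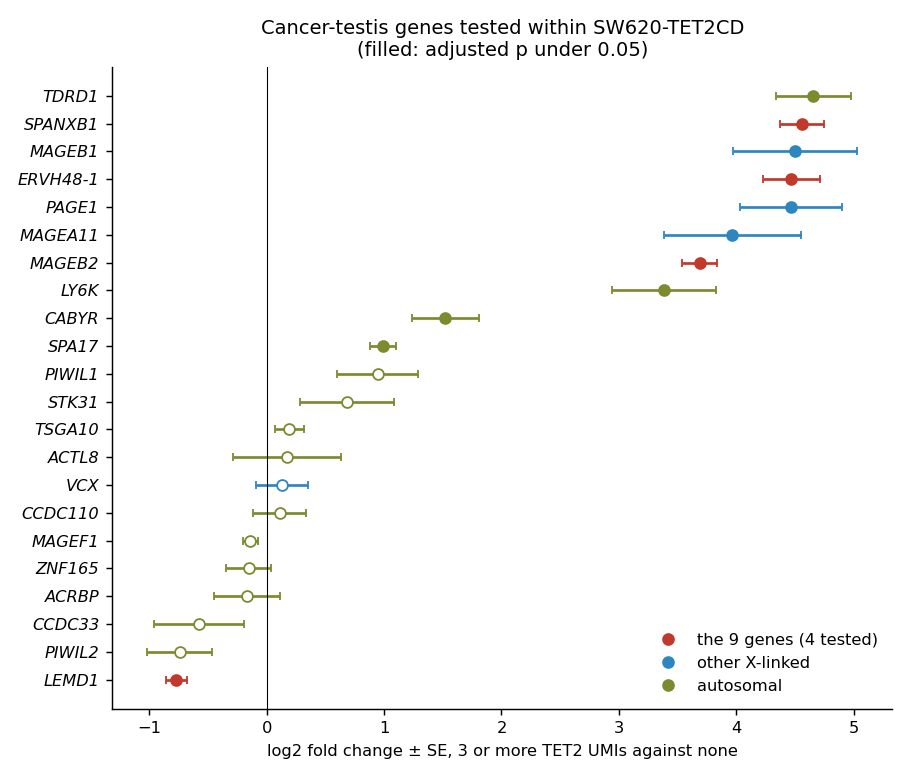
Log2 fold change with its standard error (x axis) of SW620-TET2CD cells with 3 or more TET2 UMIs against cells with none, for the 22 genes (y axis) with enough counts, in red the genes described here, in blue other X-linked and in green autosomal genes, filled where the adjusted p was under 0.05. The fill supports nothing for genes with enough counts only through the cells with 3 or more, SPANXB1, ERVH48-1, TDRD1, MAGEB1, PAGE1, MAGEA11 and LY6K among them. SPANXB1, ERVH48-1 and MAGEB2 lie at 4.56, 4.47 and 3.69 among TDRD1, MAGEB1, PAGE1, MAGEA11 and LY6K, and LEMD1 lies lowest at -0.77.

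Between the lines, 22 of the 152 listed genes were tested: 3 were called higher in SW620-TET2CD, 1 lower and 18 neither, beside 2.37% of all genes higher and 1.85% lower, with a median log2 fold change of 0.21 against -0.0035 over all genes. LY6K had no UMI in SW620-FLAG and 0.445, 0.248, 0.249 and 0.549 CPM in SW620-TET2CD. TDRD1 had 0.135, 0.0368, 0 and 0 CPM against 0.647, 0.827, 1.20 and 1.18 CPM. Both had enough counts only through SW620-TET2CD, so the direction of their calls was fixed. STK31 and SYCP3 also had enough counts only through SW620-TET2CD, and TEX19 and XAGE3 only through SW620-FLAG. The count of calls and the median therefore support nothing. The third gene called higher was SPA17 (log2 fold change 0.72 ± 0.10). Without day as a term SPA17 and TDRD1 lost their calls. TEX19 was the 1 called lower (-1.24 ± 0.29). It had enough counts only through SW620-FLAG, and it missed the threshold with DESeq2 (adjusted p = 0.19) and with any 1 library left out (edgeR adjusted p = 0.075 to 0.19). SPA17 had 7.76, 6.96, 7.98 and 5.85 CPM in SW620-FLAG and 14.0, 12.4, 14.2 and 9.86 CPM in SW620-TET2CD, without overlap, as for 2.14% of the genes tested. With only the SW620-TET2CD cells that lacked a TET2 UMI, 18 listed genes were tested and SPA17 (0.48) alone passed.

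Over time, 6 of the 22 rose, 3 fell and 13 did not pass (29.4% of all genes rose and 28.6% fell). The deepest fall was in ACTL8, an actin-like protein, which in SW620-FLAG had 0.705, 0.533, 0 and 0 CPM in the order of the 4 days, with 0.661, 0.620, 0.0208 and 0 CPM for SW620-TET2CD. MAGEB6 fell by 2.26 ± 0.51 on the log2 scale and PIWIL1 by 0.68 ± 0.26, a call that was lost without day 6 or day 15 of either line (edgeR adjusted p = 0.090 to 0.15). DKKL1 (3.62 ± 0.56), an acrosomal protein, ACRBP (2.18 ± 0.30) and TEX19 (1.31 ± 0.29) rose most. ACTL8 and MAGEB6 had enough counts only through the early days and DKKL1 and TEX19 only through the late ones, so the direction of these calls was fixed.

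Of 12 genes listed for receptors, binding partners and targets, 9 reached 5 CPM in at least 1 library. SLC1A4, MFSD2A and RARG stayed at or below 1.78, 4.66 and 4.86 CPM. SLC1A5, the receptor that suppressyn occupies, was at 220 to 303 CPM over the libraries, TRIM28 at 77.8 to 211 CPM and ELOB, a subunit of CUL2 ligases, at 320 to 453 CPM. All 12 partner genes were tested. MFSD2A is the receptor of syncytin-2, which none of the 9 genes encodes. Between the lines MFSD2A rose (0.79 ± 0.19) and RXRA fell (-0.35 ± 0.09), and 10 did not pass, beside 4.21% of all genes called. Both calls were lost with any 1 library left out (edgeR adjusted p = 0.058 to 0.13 for MFSD2A and 0.074 to 0.21 for RXRA). Late against early days, 3 rose and 5 fell, beside 29.4% and 28.6% of all genes, among them MFSD2A (-2.49 ± 0.26), TRIM28 (-1.27 ± 0.14) and RAD18 (-1.20 ± 0.17). Between the TET2 classes MFSD2A rose (0.89 ± 0.24) and RXRA (-0.86 ± 0.11) and PRKAA1 (-0.37 ± 0.07) fell, beside 8.87% and 7.6% of all genes, and the MFSD2A call was lost without day 9 or day 12 (edgeR adjusted p = 0.11 and 0.086). Among 15 other genes of endogenous retroviral origin, 5 were tested and none passed between the lines (edgeR, adjusted p), ERVMER34-1 alone rose with TET2 UMIs (0.55 ± 0.14, lost without day 9 or day 12, edgeR adjusted p = 0.071 and 0.066), and late days, in which 58% of all genes passed, had 1 rise (ERV3-1, 0.91 ± 0.17) and 3 falls (ERVK9-11, -1.58 ± 0.29, ERVMER34-1, -1.14 ± 0.17, and ERVK3-1, -1.08 ± 0.13).

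The genes whose level ran most like that of a member over the 8 libraries were sought among 11061 others with at least 5 CPM somewhere, by Pearson r of log2(CPM + 1), as a description. For MAGEB2 they were AC092127.2 (r = 0.995), GPAT2 (0.978), itself a testis-expressed acyltransferase, and CHSY1 (0.966). On days 6 and 15 GPAT2 was at 2.98 and 0.114 CPM for SW620-FLAG, with 7.40 and 1.98 CPM for SW620-TET2CD. For LEMD1 they were IGFBP3 (0.998), CRELD1 (0.998) and ERRFI1 (0.997), which rose on the same days: ERRFI1 was at 6.22, 8.75, 53.0 and 72.1 CPM in SW620-FLAG. The 8 libraries share lines and days, and 58% of all genes tested passed the contrast of late against early days.

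The bulk values are in TPM, which scales the count to transcript length and to the same total in every library, and they come from whole populations, in which fewer positive cells and less RNA per cell cannot be told apart. On day 6, MAGEB2 was at 1.11 TPM in SW620 and listed at 0 in SW480, and SPANXB1 was the reverse, at 4.79 TPM (21 expected counts) in SW480 and 0 in SW620. LEMD1 was at 5.09 TPM in SW620 and 1.23 TPM in SW480. ERVH48-1 was at 0.09 and 0.16 TPM, from 3 and 6 counts. MAGEB2 (21 expected counts in SW620) and SPANXB1 were thus each listed in 1 of the lines, and LEMD1 and ERVH48-1 in both. With 1 library per line this was not tested.

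The bulk libraries of day 6 and of day 15 are labelled SW620, which does not say whether the cells carried the empty vector. The comparison over time in bulk is therefore between cells that may differ in this. From day 6 to day 15, MAGEB2 went from 1.11 TPM to 0.51 TPM inside and 0.41 TPM outside the colonies of SW620-FLAG. LEMD1 went from 5.09 to 17.4 and 23.2 TPM, that is 3.42 and 4.57 times, beside 48.7 times in the single-cell sums. The MAGEB2 level on day 15 was 0.459 (inside) and 0.369 (outside) of that on day 6 in bulk, beside 0.0326 in the single-cell sums. The gap between the assays was not tested.

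On day 15, the SW620-TET2CD colonies held 1.88 TPM of MAGEB2 and the cells outside them 10.3 TPM. ERVH48-1 had 0.13 and 0.25 TPM inside and outside SW620-FLAG colonies, and 2.77 and 12.3 TPM inside and outside SW620-TET2CD colonies. SPANXB1 was listed at 0 in SW620-FLAG and inside SW620-TET2CD colonies, and at 11.3 TPM (61 counts) outside them. For these 3 genes the SW620-TET2CD cells outside colonies thus had the highest value of all 6 bulk libraries. The share of all genes that were highest in that library was not computed.

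Of the 5 genes that were almost silent in the single-cell data, 4 had counts in the same library: PRAME at 0.37 TPM (15 counts), MAGEA3 at 0.35 TPM (10.5 counts), CTAG2 at 0.19 TPM (3 counts) and MAGEA6 at 0.05 TPM (1.51 counts). Each of them was listed at 0 in the other 3 day 15 libraries, and SW480 had 0.07 TPM of PRAME and 0.08 TPM of MAGEA3 from 3 and 2 counts. The other one, MAGEA4, was listed at 0 there and had 1 count inside SW620-FLAG colonies. The library of SW620-TET2CD cells outside colonies was also the deepest in bulk, at 25840563 expected counts. The share of all genes with counts in that day 15 library alone was not computed, so nothing is read from the 4. MAGEA3 and MAGEA6 share 41.5% of the MAGEA3 transcript windows of 75 bases, so the split of their counts is uncertain, as is that of CTAG2 and CTAG1A (33.0% of windows). SPANXB1 shares 7.65% of its windows with other genes, mainly SPANXA1, and MAGEB2, PRAME, LEMD1 and ERVH48-1 share none.

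TET2 differed between the same libraries. SW620-FLAG had 1.15 and 1.29 TPM inside and outside colonies, and SW620-TET2CD had 38.1 and 124 TPM, a ratio of 3.26 between the locations. The ratio of outside to inside in SW620-TET2CD was 5.46 for MAGEB2, 4.43 for ERVH48-1 and 0.559 for LEMD1. In SW620-FLAG, where TET2 had a ratio of 1.12, it was 0.804 for MAGEB2, 1.92 for ERVH48-1 (6 and 11 counts) and 1.33 for LEMD1. The part of the TET2 difference in the location difference was not tested.

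**Figure D4:**
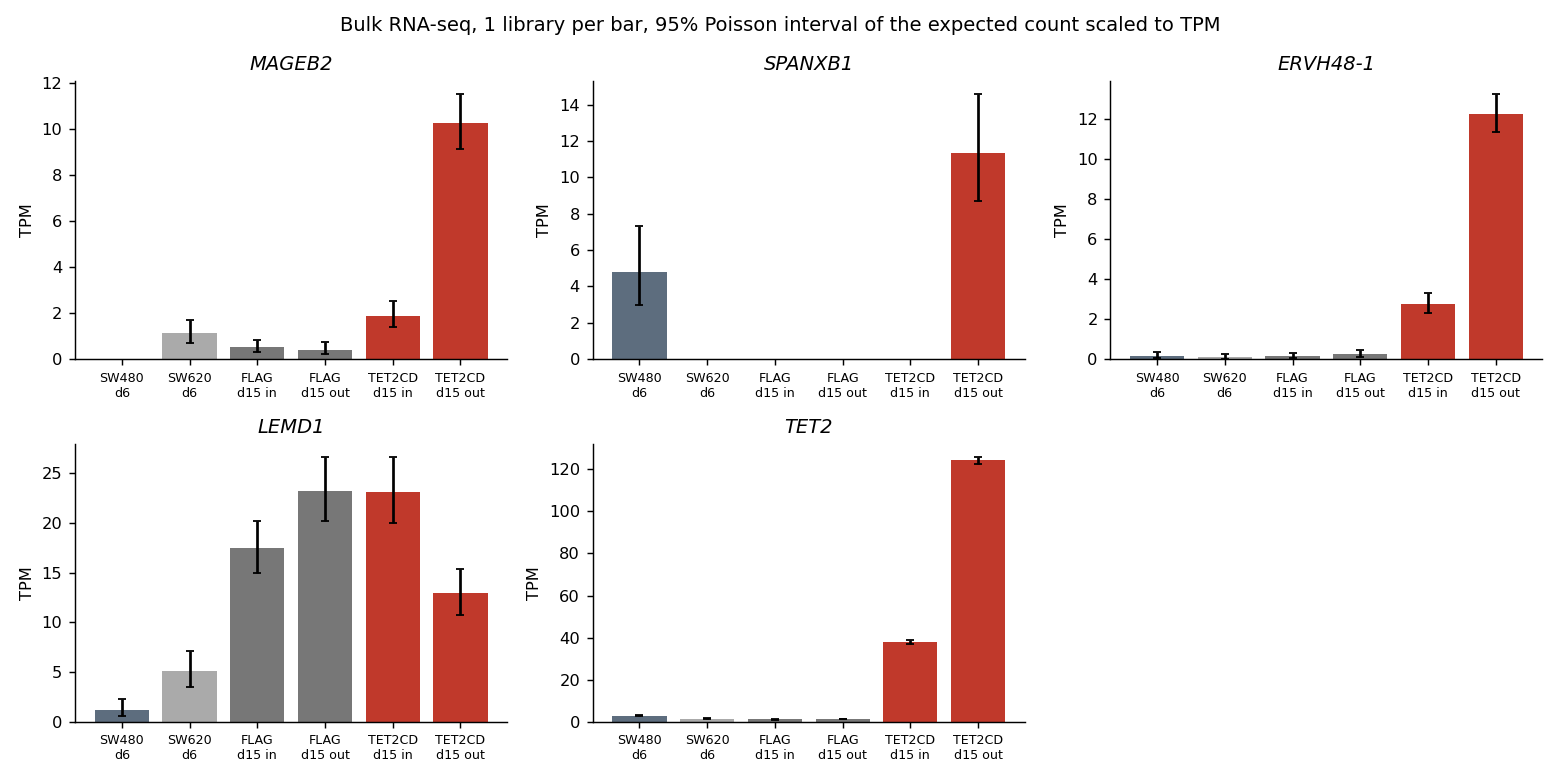
Bulk level (y axis, TPM) of MAGEB2, SPANXB1, ERVH48-1, LEMD1 and TET2 in the 6 libraries (x axis: SW480 and SW620 on day 6, then cells inside and outside colonies of SW620-FLAG and SW620-TET2CD on day 15), with 95% Poisson intervals of the expected count scaled to TPM and none drawn at 0. MAGEB2, SPANXB1, ERVH48-1 and TET2 are highest in SW620-TET2CD cells outside colonies (10.3, 11.3, 12.3 and 124 TPM), where LEMD1 (12.9 TPM) is the lowest of the day 15 libraries.

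In the fit of the 4 day 15 libraries with line as a term, which leaves 1 residual degree of freedom, the log2 fold change of outside over inside was 1.46 ± 0.67 for MAGEB2, 1.86 ± 0.33 for ERVH48-1 and -0.24 ± 0.38 for LEMD1. No gene of 17722 passed an adjusted p of 0.05 by edgeR (0%), 1068 had an unadjusted p under 0.05, and DESeq2 called 10 higher and 11 lower. Without the SW620-TET2CD outside library the values were -1.49 for MAGEB2, -2.62 for ERVH48-1 and 0.20 for LEMD1, but that fit has no line term and sets SW620-FLAG alone against both lines. With location as the term, the log2 fold change of SW620-TET2CD over SW620-FLAG was 3.27 ± 0.68 for MAGEB2, 5.26 ± 0.36 for ERVH48-1 and -0.24 ± 0.38 for LEMD1 (0.412% of the genes tested passed in either direction). Of 18 listed cancer-testis genes tested in bulk, none passed in either comparison by edgeR.

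The listed genes that rose with TET2 UMIs in single cells were also read in bulk, as values. For TDRD1, MAGEA11, MAGEB1, LY6K and PAGE1 the direction of that rise was fixed by the count filter. Their bulk values come from the same line and support nothing further, and the share of all genes with a like order was not computed. TDRD1 had 0.01 and 0 TPM inside and outside SW620-FLAG colonies, and 0.35 and 3.23 TPM (25 and 263 counts) inside and outside those of SW620-TET2CD. MAGEA11 was at 0, 0, 0.25 and 2.29 TPM in the same order, MAGEB1 at 0, 0, 0 and 0.78 TPM, and LY6K at 0, 0, 0.02 and 0.64 TPM. PAGE1, at 0, 0, 0.12 and 0.11 TPM from no more than 1 count, did not show this order. SPA17 was at 4.43, 2.81, 3.32 and 7.52 TPM and CABYR at 1.42, 1.32, 0.85 and 1.76 TPM, so inside colonies both were lower in SW620-TET2CD than in SW620-FLAG. The log2 fold change between lines in bulk was 0.64 ± 0.45 for SPA17 and -0.62 ± 0.46 for CABYR, and neither passed. The bulk kit does not mark strand, so reads of a gene and of an antisense transcript cannot be told apart there. MAGEA4, PRAME and LEMD1 have annotated antisense or overlapping neighbours with 186, 19 and 38 shared exon bases at most.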

How the data were processed

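Single-cell RNA-seq (10x Genomics 3′) and bulk RNA-seq of the colorectal cancer lines SW620-FLAG, SW620-TET2CD and SW480 were read from the deposited tables. The authors made the single-cell UMI counts with Cell Ranger 4.0 on GRCh38, with strand used and reads mapping to several genes dropped. The authors made the bulk expected counts and TPM with Bowtie and RSEM, whose versions were not given in the sources used here. The submitters' processing notes name mm10 for the bulk data although all gene identifiers in it are human, so no bulk build is stated. A UMI counted on the 3′ end says nothing of the rest of a transcript, RSEM divides reads among near-identical genes, and 45 copies of genes on the Y pseudoautosomal region were removed. All columns were mapped to samples.

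UMIs of kept cells were summed per library, or per library and TET2 class (TET2 itself left out of that fit), and tested with edgeR 4.0.16 (R 4.3.3; filterByExpr with a minimum count of 10 and a minimum total of 15, TMM, quasi-likelihood, Benjamini-Hochberg over all genes tested). Expected counts were rounded. SE is the log2 fold change divided by the root of F. Doublets were not called. Alternatives were DESeq2 1.42.0, other scalings, filters and cells, and each library left out in turn. The scripts were tested on simulated counts with known changes. Poisson, Clopper-Pearson and conditional binomial intervals have 95% confidence and were computed with scipy 1.17.1. Library depth sets the precision: single-cell sums of 48186195 to 74185723 UMIs and bulk totals of 16470176 to 25840563 expected counts.

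The members and lists were chosen with earlier results of these data known. Named genes were all members, the 5 most abundant of each other list and up to 3 called genes with the highest rise and 3 with the deepest fall in each comparison, plus the 3 genes most like a member with at least 5 CPM. MAGEB3, MAGEB4 and the cell type markers at or near 0 were named after their values were seen. Promoters came from a RefSeq table of GRCh38.p14, and the 13 of the members were identical to the genome at the stated coordinates. With 1 library per condition, p-values measure the spread between days, locations or libraries, not between cultures.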

Additional observations from a re-analysis of the deposited data

Results flagged for a closer look

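The effect of location ran in opposite directions in the 2 lines for LEMD1 and MAGEB2 in bulk, and the difference was not tested, since each line had 1 library per location. For LEMD1 the SW620-FLAG colonies held 17.43 TPM and the cells outside them 23.25 TPM, while the SW620-TET2CD colonies held 23.14 TPM and the cells outside them 12.94 TPM. For MAGEB2 the SW620-FLAG values were 0.51 TPM (inside) and 0.41 TPM (outside), from 15 and 11 counts whose intervals overlap, and the SW620-TET2CD values were 1.88 TPM (inside) and 10.27 TPM (outside). TET2 was 3.26 times as high outside as inside in SW620-TET2CD, and its part was not tested. SPANXB1 in SW480 on day 6 is a signal outside the comparisons of the SW620 lines, at 4.79 TPM (interval 2.97 to 7.32) where SW620 on day 6 is listed at 0.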

How the results depend on the processing

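Of the 152 listed cancer-testis genes, 4 passed between the lines in single cells (3 higher, 1 lower). The count was 1 without day as a term, 1 with only SW620-TET2CD cells that lacked a TET2 UMI (chosen after seeing the data), 7 with every barcode, 7 without upper limits on genes and UMIs, 10 without the filter on low counts, and 3 to 4 with each library left out. The genes were not the same: TEX19, the 1 lower, was lost with each library left out and with DESeq2, while LY6K, TDRD1 and SPA17 were called each time, with MAGEB1 added in 5 of the 8. Late against early days 9 passed, 15 without the filter, and 7 to 11 with each library left out. For location in bulk 0 passed and 2 without the filter, and for line in bulk 0 passed, 1 with DESeq2, 1 with upper-quartile factors and 4 without the filter. With each bulk library left out, which drops the term for the other factor, 0 to 13 passed for line and 0 for location. The 13 came without the SW620-TET2CD inside library and 2 without the outside one. For the TET2 classes 7 passed, 13 with every barcode, 12 without upper limits, 17 without the filter, 7 to 8 with each library left out, and 1 with cells thinned to 2000 UMIs, where only 6 were tested. Without library as a term 5 passed, and CABYR and SPA17 were lost.

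Between the lines in single cells the log2 fold change ranged over 1.12 to 3.12 for MAGEB2 and 4.38 to 7.33 for SPANXB1 over the alternatives. The low ends came with only SW620-TET2CD cells that lacked a TET2 UMI. It ranged over 6.15 to 7.02 for ERVH48-1 and -0.84 to -0.41 for LEMD1. In the TET2 classes MAGEB2 stayed at 3.11 to 4.07, SPANXB1 at 3.87 to 4.98 and ERVH48-1 at 3.87 to 4.74 over 14 alternatives on the log2 scale. The adjusted p of MAGEB2 was at most 0.019 over these edgeR and DESeq2 fits, and it does not cover the choice of the gene. No p is given for SPANXB1 and ERVH48-1, which had enough counts only through the cells with 3 or more TET2 UMIs. LEMD1 ranged over -1.34 to -0.34 and lost its call without library as a term (-0.81). With each bulk library left out, the location value ranged over -1.49 to 3.30 for MAGEB2, -2.62 to 5.70 for ERVH48-1 and -0.74 to 0.20 for LEMD1 (0.20 without the SW620-TET2CD outside library, 0.037 without the inside one). In the same way the line value in bulk ranged over 2.01 to 4.36 for MAGEB2 and 4.03 to 6.09 for ERVH48-1. The line value of LEMD1 in bulk ranged over -0.73 to 0.21 (0.21 without the SW620-TET2CD outside library, 0.042 without the SW620-FLAG outside one). Without the term for the other factor these fits mix line and location.

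Over all genes the count of calls moved by more than 1.5 times under several settings. Between the lines 391 rose and 305 fell, against 42 and 4 without day as a term, 139 and 207 with only SW620-TET2CD cells that lacked a TET2 UMI, 758 and 731 without the filter, 268 and 148 without SW620-FLAG day 9, and 258 and 168 without SW620-TET2CD day 9. In the TET2 classes 1327 rose and 1137 fell, against 171 and 18 without library as a term, 490 and 383 with thinned cells, 2025 and 2654 with every barcode, 1901 and 1903 without upper limits, and 699 and 677 without day 9. For line in bulk 51 rose and 22 fell, against 3 and 5 without location as a term, 348 and 361 with DESeq2, 103 and 75 with upper-quartile factors, 1054 and 1185 without the filter, 2138 and 2053 without SW620-TET2CD inside, 1395 and 1555 without SW620-TET2CD outside, and 0 and 0 without either SW620-FLAG library. In those fits edgeR gave an unadjusted p under 0.05, in either direction, for 1186 genes without the inside library and 1265 without the outside one. For location in bulk 285 rose and 187 fell without the filter, against 0. Upper-quartile factors shifted the median of all genes late against early from 0.04 to 0.21, with 6250 higher and 3636 lower against 4861 and 4726. Depth limits what can be said of MAGEA3, MAGEA4, MAGEA6, CTAG2 and PRAME. The labels number no replicates, but the title of the bulk SW620 library of day 6 ends in a number that is not explained. The lines were matched by day and the TET2 classes by library, through the terms above.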
